A study of Rattus norvegicus with 56 samples.

Results

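Clk1, Clk4, Srsf1, Srsf2, Srsf3, Srsf5, Srsf6, Srsf7 and Sf3a1 were followed in primary cultures of rat hippocampal neurons after repetitive transcranial magnetic stimulation (rTMS). These 9 genes were measured by 14 probes, chosen because the RefSeq accession that the scanner files give for each probe belongs to 1 of the genes. The arrays named 16481 genes in all by 20929 probes. The genes had been chosen by their probe levels on these arrays, which moved with time and between series of sample numbers. They had also been labelled temperature-linked. Because of this choice, changes over time and differences between series are described here without a test. No culture temperature was measured on these arrays, and the word temperature-linked could not be checked against them.

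The cultures came from hippocampi of Sprague-Dawley rat embryos at E18 and lay on an inverted magnetic coil during treatment. Sham dishes stayed in the same kind of incubator with the coil at a distance, 1 Hz dishes received single pulses at that rate, and iTBS (intermittent theta burst stimulation) dishes received short bursts of pulses. Untreated dishes were collected at 0 h alone, and the other arms at 5 times counted from the end of treatment (0, 2, 8, 24 or 48 h), which gave 16 groups with 56 arrays. One array (1 Hz at 2 h, replicate 2) had its spot grid marked bad in the scanner file and correlated with the mean of the others by only −0.01, so 55 arrays in groups of 2 to 4 were used. By runs of the sample numbers in the labels, the arrays were put here into 4 series, called A, B, C and D, with 11, 12, 17 and 15 arrays. What a series is, such as a culture preparation or a batch, is not stated. The labels do not say that arrays of 1 group came from separate cultures, so the spread between them may be technical. Time after stimulation and age of the culture cannot be told apart, since every later array was also an older culture.

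SR proteins bind exonic sequences through RNA recognition motifs and recruit the spliceosome through a domain rich in arginine and serine. CLK1 and CLK4 are nuclear kinases that phosphorylate this domain, and their activity in mammalian cells is known to rise when temperature falls. Several SR protein genes, Srsf3 and Srsf7 among them, carry poison exons whose inclusion sends the transcript to decay, and Clk1 and Clk4 transcripts are known to retain introns. SF3A1 is a subunit of the U2 snRNP, which binds the branch point. A single array probe reads 1 stretch of a transcript, and the position of each probe in its gene was not given in the sources used here.

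The sequences just upstream of the annotated starts of 5 of the genes are shown because their transcripts gave the widest differences over time among the kinases and among the genes that were lower later. Each run holds the 150 bases before the start on the gene's strand, from RefSeq promoters of build GRCr8, and ends at the base before the start. The positions are chr9:67453181-67453330 (minus strand) for Clk1, chr10:36025590-36025739 (plus strand) for the second of the 2 annotated Clk4 starts, chr6:106336606-106336755 (plus strand) for Srsf5, chr3:172008922-172009071 (plus strand) for Srsf6 and chr14:83254821-83254970 (plus strand) for Sf3a1. Capitals mark 4 short motifs on either strand: the heat shock element core GAANNTTC, the cAMP response element TGACGTCA, the CCAAT box and the GC box GGGCGG.
Clk1: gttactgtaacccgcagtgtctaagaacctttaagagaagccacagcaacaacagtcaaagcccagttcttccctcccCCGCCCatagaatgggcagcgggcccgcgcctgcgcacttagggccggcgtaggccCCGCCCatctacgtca
Clk4: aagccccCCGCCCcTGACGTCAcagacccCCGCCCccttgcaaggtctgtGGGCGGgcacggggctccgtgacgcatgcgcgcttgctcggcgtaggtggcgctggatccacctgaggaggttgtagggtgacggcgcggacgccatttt
Srsf5: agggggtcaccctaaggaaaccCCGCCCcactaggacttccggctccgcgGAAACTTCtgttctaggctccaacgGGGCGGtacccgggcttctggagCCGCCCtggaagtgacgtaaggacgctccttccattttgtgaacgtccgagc
Srsf6: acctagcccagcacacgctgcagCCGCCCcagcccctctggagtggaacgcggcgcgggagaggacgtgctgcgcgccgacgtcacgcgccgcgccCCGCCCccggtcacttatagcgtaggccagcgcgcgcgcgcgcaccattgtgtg
Sf3a1: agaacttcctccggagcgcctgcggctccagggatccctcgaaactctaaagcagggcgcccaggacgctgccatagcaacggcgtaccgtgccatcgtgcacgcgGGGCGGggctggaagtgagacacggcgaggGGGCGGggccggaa
Over the 250 bases before the start, GAANNTTC was in 1 of the 10 promoters of the 9 genes (Srsf5) and in 7.23% of all 33469 promoters. TGACGTCA was in 1 of 10 (Clk4) and in 1.59% of all. CCAAT was in 4 of 10 against 34.0% of all, and GGGCGG in 7 of 10 against 30.5% of all. The 2 motifs of 8 letters do not overlap the others in these windows, and a match describes letters and not a bound site.

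All 14 probes were well above background on all 55 arrays. Levels are given as scaled log2: log2 signal, standardised within each array and put back on the log2 scale with the median standard deviation of the arrays. Mean levels ran from 2.74 for Srsf6 and 2.79 for Sf3a1 to 7.85 for the Srsf2 probe A_44_P1089951, and different probes have different brightness, so levels are compared within a probe only.

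Sf3a1 gave the most uniform change over time. At 0 h its level was 3.10, 3.28, 3.31 and 3.24 in the sham arrays of series B, A, C and D, 2.99, 2.96 and 3.20 after 1 Hz in B, C and D, and 2.73, 2.96, 2.82 and 3.19 after iTBS in B, C, A and D. At 48 h it was 2.51, 2.50 and 2.63 in sham (A, C and D), 3.18, 2.42, 2.29 and 2.59 after 1 Hz (A to D), and 2.70, 2.59, 2.34 and 2.48 after iTBS (A to D). The sham groups of 0 h and 48 h did not overlap, whereas the 1 Hz groups overlapped through the series A array at 48 h, which had no 0 h array of its own arm and series.

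To keep arm and series fixed, each later array was set against the 0 h array of the same arm and series, where there was one. This gave 10 pairs at 2 h, 9 pairs at 8 h, 8 pairs at 24 h and 10 pairs at 48 h. The later times share their 0 h arrays, so agreement between times is not independent. From 8 h onward Sf3a1 was lower in all pairs of each time, with a median difference of −0.44 (range −0.91 to −0.18) at the first of these, then −0.69 (−0.91 to −0.15) and −0.62 (−0.81 to −0.13), in scaled log2. Of all 35688 probes tested, 2.19% were lower in all pairs at 8 h, 3.07% at 24 h and 2.17% at 48 h. The difference was present without stimulation: the median of the sham pairs was −0.72 at 8 h, −0.85 at 24 h and −0.77 at 48 h. Its size depends on the 0 h arrays used, as untreated dishes (series A and C) had a lower mean than sham at 0 h. The means were 2.84 (range 2.66 to 3.18) untreated and 3.23 in sham, and later sham means were 2.44 at 8 h, 2.40 at 24 h and 2.55 at 48 h. At 2 h Sf3a1 was higher in 6 of 10 pairs, by 0.14 in the median, a value that turned to −0.09 after normexp background correction and quantile normalization.

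Srsf6, an SR protein, was the other gene lower in all 10 pairs at 48 h. Its levels at 0 h were 3.15, 3.11, 2.76 and 2.70 in sham (B, A, C and D), 3.11, 2.93 and 2.87 after 1 Hz (B, C and D) and 2.95, 2.79, 3.12 and 2.71 after iTBS (B, C, A and D). At 48 h they were 2.84, 2.57 and 2.20 in sham (A, C and D), 3.04, 2.47, 2.65 and 1.78 after 1 Hz (A to D) and 2.87, 2.24, 2.45 and 2.10 after iTBS (A to D). Groups of the 2 times overlapped in every arm, although the mean was lower at 48 h in each. The mean level of Srsf6 at 0 h and 48 h was 2.93 and 2.54 in sham, 2.97 and 2.48 after 1 Hz, and 2.89 and 2.42 after iTBS. Its median difference was 0.02 at 2 h, −0.17 at 8 h (lower in 8 of 9 pairs), −0.45 at 24 h (8 of 8) and −0.42 at 48 h, where single pairs ran from −1.09 (1 Hz, series D) to −0.19 (sham, series C).

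Srsf5, an SR protein, gave the lowest median difference of all 14 probes at 8 h, on the probe A_44_P515521. Its levels at 0 h were 6.93, 6.21, 6.56 and 6.30 in sham (B, A, C and D), 6.92, 6.54 and 6.45 after 1 Hz (B, C and D) and 7.04, 6.41, 6.61 and 6.43 after iTBS (B, C, A and D). At 8 h they were 6.54, 5.75 and 5.97 in sham (B, C and D), 6.59, 6.27, 5.76 and 5.77 after 1 Hz (A to D) and 6.38, 5.89 and 5.78 after iTBS (B, C and D). All 9 pairs were lower at 8 h, with a median of −0.65 and a range of −0.81 to −0.34. All 8 were lower at 24 h (median −0.36, lowest −1.47) and 9 of 10 at 48 h (median −0.44), where the sham pair of series A was higher by 0.31. Series B held the lowest values at the late times, −1.47 at 24 h and −1.54 at 48 h after iTBS. As for Sf3a1, the size of the difference depends on the 0 h arrays used. Untreated dishes at 0 h (series A and C) had a mean of 6.01 on this probe, against 6.50 in sham. The means at 8 h were 6.08 in sham, 6.10 after 1 Hz and 6.02 after iTBS, close to the untreated mean.

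**Figure D1:**
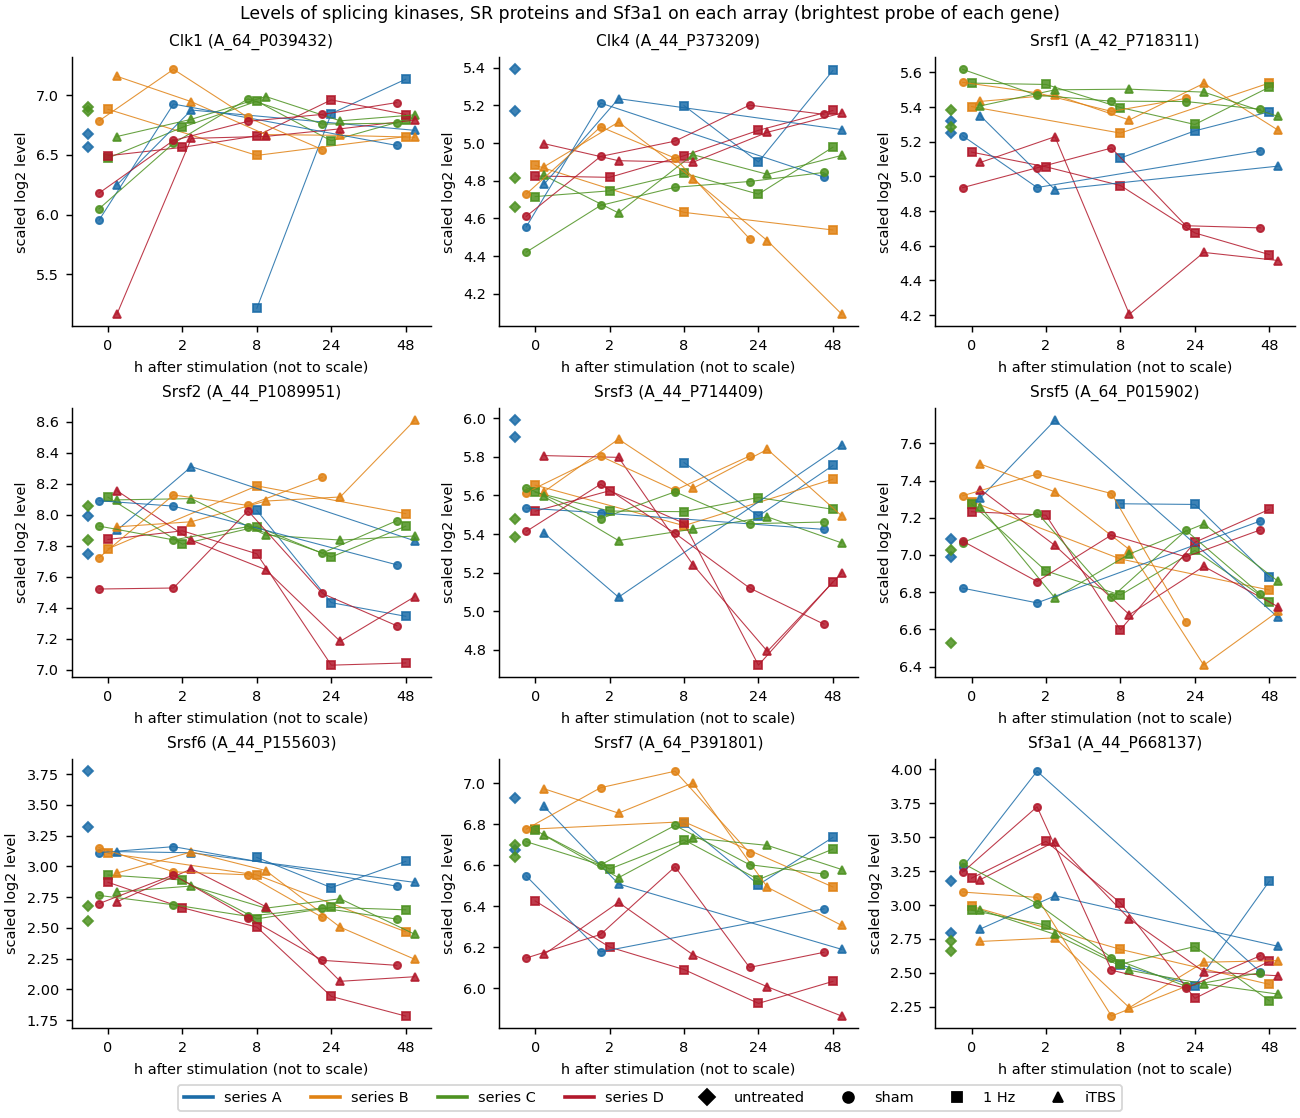
Scaled log2 level (vertical axes, 1 panel per gene, brightest probe) on each of the 55 arrays against hours after stimulation (horizontal axes, not to scale). Colours are series, symbols are arms, and lines join arrays of 1 arm and series. Sf3a1 lies between 2.73 and 3.31 in the stimulated and sham arms at 0 h and between 2.31 and 2.69 at 24 h, and the series D arrays of Srsf1, Srsf3 and Srsf6 lie below the others at 24 h.

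The kinase Clk1 differed from 0 h in the other direction, though not in every series. At 0 h its level was 6.79, 5.95, 6.05 and 6.18 in sham (B, A, C and D), 6.88, 6.47 and 6.49 after 1 Hz (B, C and D) and 7.16, 6.65, 6.25 and 5.16 after iTBS (B, C, A and D). At 48 h it was 6.58, 6.77 and 6.94 in sham (A, C and D), 7.13, 6.65, 6.79 and 6.84 after 1 Hz (A to D) and 6.71, 6.65, 6.84 and 6.79 after iTBS (A to D). The 0 h arrays spread widely and the 48 h arrays lay close together, and series B alone was high at 0 h in all 3 arms. Clk1 was higher in 9 of 10 pairs at 2 h (median 0.44), 7 of 9 at 8 h (0.34), 6 of 8 at 24 h (0.31) and 8 of 10 at 48 h (0.40). The pairs that were lower at 24 h and 48 h were those of series B, such as −0.51 after iTBS at 48 h. The highest pair of each later time, between 1.47 and 1.63, was iTBS in series D and rested on its single 0 h array at 5.16. That array and the 1 Hz array of series A at 8 h, which read 5.21, had the most outlier spots of the 55 (1203 and 1305, against 217 to 1071 on the others). Without the iTBS array the median difference of Clk1 from 0 h was 0.43, 0.25, 0.14 and 0.35 at the later times in order, and 8 of 9, 6 of 8, 5 of 7 and 7 of 9 pairs were higher. No probe of the 9 genes was higher in all pairs at any time, where 0.336% of all probes were so at 2 h, 3.35% after 8 h, 4.75% after 24 h and 4.37% after 48 h. At 2 h none was lower in all pairs either, and of all probes 0.269% were.

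Untreated dishes put the low 0 h levels of Clk1 in context. They read 6.68 and 6.57 in series A and 6.90 and 6.87 in series C, against sham arrays of 5.95 in A and 6.05 in C at the same time. The difference between untreated and sham over all series was 0.51 ± 0.26 (standard error) and did not pass the test (limma, unadjusted p 0.0581, adjusted p 1.00).

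Clk4, the paralogous kinase, was higher in 7 of 10 pairs at 2 h (median 0.24), 6 of 9 at 8 h (0.11), 6 of 8 at 24 h (0.04) and 8 of 10 at 48 h (0.26). Its pairs ran from −0.78 to 0.54 at 48 h, and the lowest was iTBS in series B. In sham alone the median was 0.34 at 2 h and 0.42 at 48 h, over 4 and 3 pairs.

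**Figure D2:**
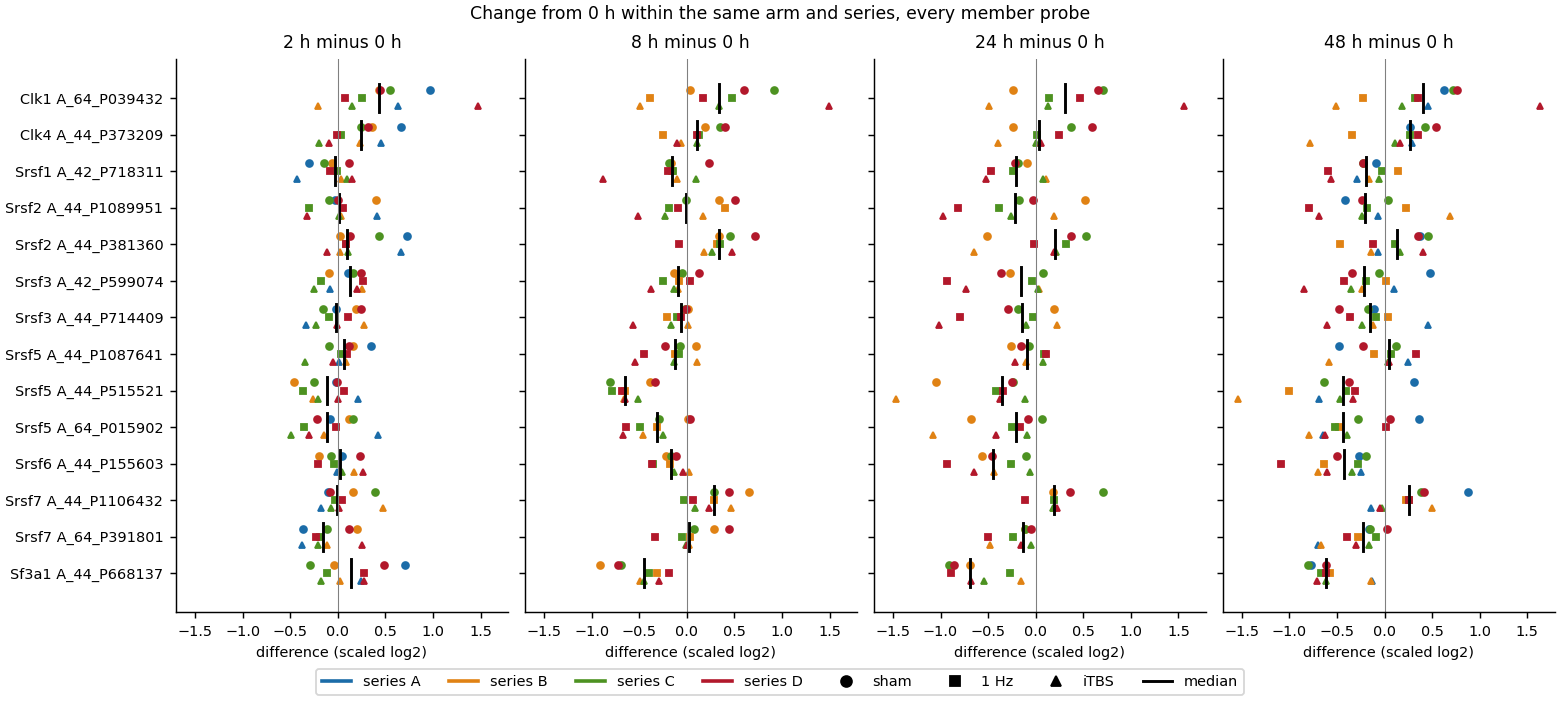
Difference in scaled log2 level between each later time and 0 h within the same arm and series (horizontal axes) for the 14 probes (vertical axis), 1 panel per time. Each symbol is 1 pair, coloured by series and shaped by arm, and the black bar is the median. At 48 h all 10 pairs of Sf3a1 and of Srsf6 lie left of 0, and Clk1 lies right of 0 in 8 of 10.

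The remaining SR proteins differed less from 0 h. Srsf1, a founding SR protein, was lower in 9 of 10 pairs at 48 h by a median of −0.20, and Srsf3, the smallest of the family, was lower in 7 and 8 of 10 on its 2 probes by −0.22 and −0.15. Taking all 14 probes, the median differences at the 4 later times in order were 0.01, −0.08, −0.15 and −0.20, against 0.00, −0.01, −0.02 and −0.04 over all probes. The median size of the difference without its sign was 0.24 at 48 h, close to the 0.22 of all probes.

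Probes of a single gene gave different courses in 3 of the 4 genes that had several. The Srsf7 probe A_64_P391801 was lower in all 8 pairs at 24 h (median −0.14) and in 9 of 10 at 48 h (−0.23), while A_44_P1106432 was higher in 7 of 8 (0.19) and 7 of 10 (0.25). The files give these probes different accessions, NM_001039035 and XM_006239642, and once series means were removed their levels correlated by 0.16 over 55 arrays. Srsf2 likewise differed by probe at 8 h, at 0.34 (higher in 8 of 9) for A_44_P381360, which carries XM_008768382, and 0.00 for A_44_P1089951, with a correlation of 0.21. In Srsf5 the probes A_44_P515521 and A_64_P015902 correlated by 0.82, and A_64_P015902 was also lower at 8 h (median −0.31, 7 of 9 pairs). The other Srsf5 probe, A_44_P1087641, correlated with them by 0.18 and 0.14 and changed by −0.12 at 8 h, although it carries the same accession as A_64_P015902. The Srsf3 probes, with the same accession, correlated by 0.71. These correlations are across arrays that share series, times and slides.

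**Figure D3:**
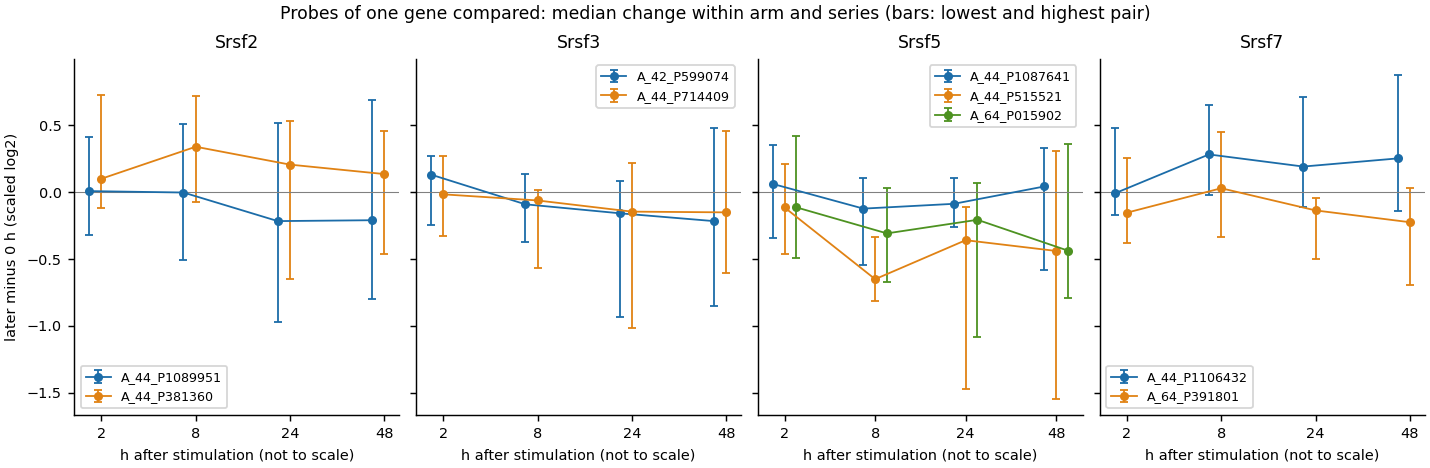
Median difference from 0 h within arm and series in scaled log2 (vertical axis) at 2, 8, 24 and 48 h (horizontal axes, not to scale) for the 4 genes with several probes, with 1 colour per probe and bars from the lowest to the highest pair. The Srsf7 probes part to 0.25 and −0.23 at 48 h, and the Srsf5 probes to −0.65, −0.31 and −0.12 at 8 h.

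Series D lay below the other series on some of the SR protein probes at the late times. At 24 h the 3 series D arrays lay below all 6 arrays of A, B and C for Srsf1, both Srsf3 probes, Srsf6 and Srsf7 (A_64_P391801), 5 of 14 probes, where 15.1% of all probes did so. At 48 h this held for 4 of 14 (Srsf1, Srsf3 A_44_P714409, Srsf6 and Srsf7 A_64_P391801) against 8.99% of all probes. Both Srsf2 probes and all 3 Srsf5 probes overlapped with the other series at both times. For Srsf1 the 3 series D arrays read 4.56 to 4.72 at 24 h against 5.26 to 5.54 elsewhere, and 4.51 to 4.70 at 48 h against 5.06 to 5.54. Srsf1 and Srsf7 (A_64_P391801) were already lower without overlap at 0 h, 2 of 14 probes against 7.11% of all probes, with medians that differed by −0.34 and −0.61. At 2 h none of the 14 lay below (5.96% of all probes did), and at 8 h only Srsf7 A_64_P391801 did, by −0.64 (8.63% of all). Clk4 was the only probe on which series D lay above all others, at 24 h (5.06 to 5.20 against 4.48 to 4.90), where 18.3% of all probes did so. At 0, 2, 8 and 48 h no member lay above, against 8.97%, 7.74%, 8.52% and 8.95% of all probes.

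Markers of cell types differed between the series as well. Oligodendrocyte lineage markers (5 of 5 genes well above background on every array) had a log2 summed level of 6.24 to 7.99 in series D and 8.81 to 10.9 in A, B and C, and fibroblast markers (3 of 3 genes) 8.06 to 8.95 in D and 4.68 to 6.58 elsewhere. Neuron markers (6 of 6 genes on every array) overlapped, with medians of 10.4 in D and 10.1, 9.98 and 9.96 in A, B and C, while inhibitory neuron markers (3 of 3 genes) read 6.66 to 7.48 in D and 5.36 to 6.61 in the rest. Over time the neuron markers had medians of 10.1 at 0 h and 9.89 at 48 h, and the astrocyte markers 10.3 and 10.6. Within the same arm and series pairs, however, the astrocyte probes had a median difference of 1.03 at 48 h, and 4 of 7 were higher in all 10 pairs, namely Gfap (1.64), Aqp4 (1.11) and both S100b probes (1.11 and 1.03). These differences were larger than those of any probe of the 9 genes, and no neuron marker probe of 7 had pairs of 1 sign at 48 h (median −0.13). Excitatory neuron markers (4 of 4 genes on every array) had medians of 7.24, 6.58, 6.90 and 7.38 in A to D. Of the microglia markers 2 of 5 genes, of the endothelial and mural markers 1 of 3 and of the choroid plexus markers 1 of 2 were well above background on every array. The part of cell composition in the differences of the splicing genes was not tested, and in such bulk samples fewer cells of a type and less RNA per cell cannot be told apart.

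**Figure D4:**
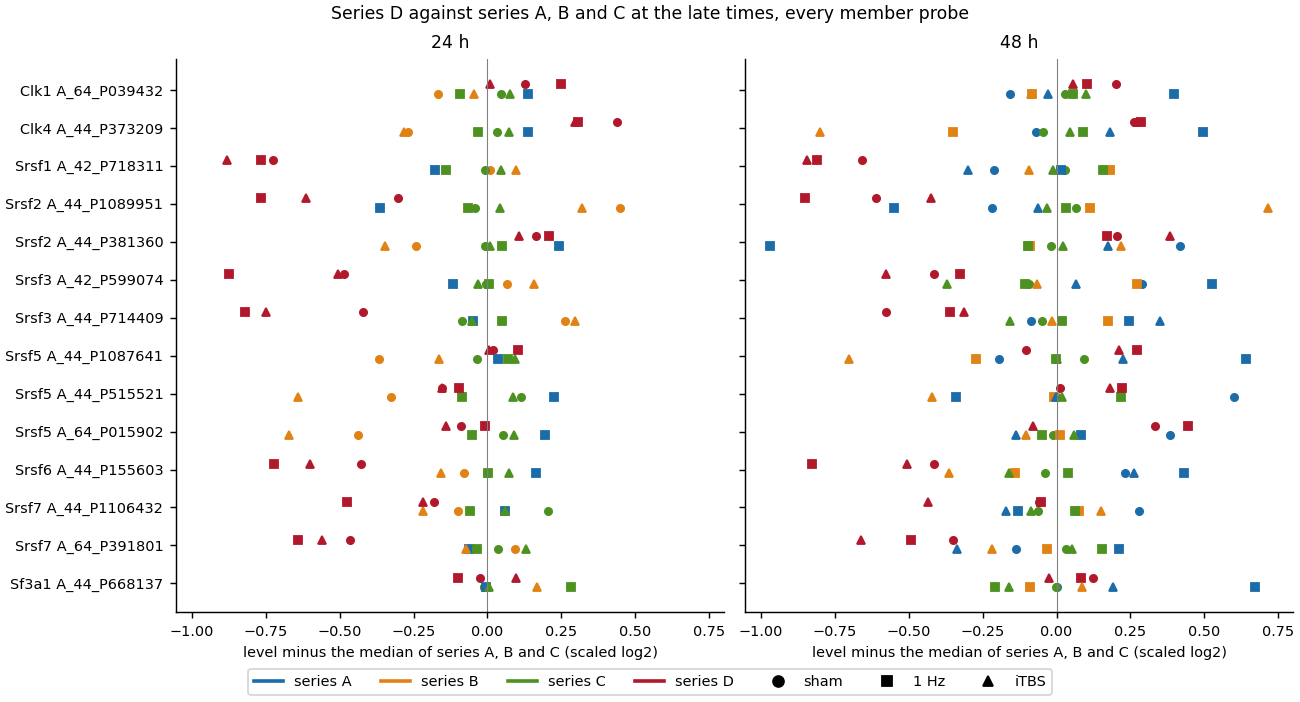
Scaled log2 level minus the median of series A, B and C (horizontal axes) at 24 h and 48 h for the 14 probes (vertical axis), with 1 symbol per array, coloured by series and shaped by arm. The series D arrays of Srsf1, Srsf6 and Srsf7 A_64_P391801 lie left of all other arrays in both panels.

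Other genes of the pathway were counted in the same pairs, beside the shares of all probes given above. Among 8 probes of other SR protein kinases, 2 were higher in all 9 pairs at 8 h, 1 for Clk2 (median 0.43) and 1 for Srpk2 (0.06), and none was uniform at the other times. At 48 h the 2 kinases with the largest median differences were Srpk2 on its other probe (−0.39, lower in 9 of 10) and Clk2 (0.33, higher in 8 of 10). Of 27 probes for other SR and SR-like proteins, 3 were higher in all pairs at 8 h, 1 was higher and 1 lower in all at 24 h, and 1 was lower in all at 48 h, when Son and Tra2b led with medians of −0.42 and −0.39 (lower in 7 and 8 of 10 pairs). The 18 probes for other U2 snRNP and branch-point proteins had a median of −0.24 at 48 h, with 1 lower in all pairs, and the list was led by Sf3b4 (−0.52) and Snrpb2 (−0.49), lower in 8 and 9 of 10. The 30 hnRNP probes, proteins that often oppose SR proteins at exons, had a median of −0.22 at 24 h, with 5 lower in all pairs, and of −0.26 at 48 h, with 1, where Hnrnpl (−0.73) and Hnrnpa1 (−0.52) led.

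Some transcripts known to follow temperature gave larger median differences over the same pairs than any of the 9 genes. Rbm3, an RNA-binding protein induced by mild cold, was lower in all 10 pairs at 48 h on both probes, with medians of −2.02 (A_44_P548203) and −1.44 (A_44_P1083168). Cirbp, the other cold-inducible RNA-binding protein, was lower in all 10 on A_44_P1087028 (−0.63) and in 6 of 10 on A_44_P1107238 (−0.15). The 10 heat shock protein probes had a median of −0.13 at 48 h, against −0.04 over all probes, so the list as a whole was not higher. Among them 2 were higher in all 10 pairs, Hspb1 (1.96) and Hspa1a on A_43_P15711 (1.10). Both had low mean levels, 0.93 and 1.45. The constitutive chaperone Hspa8 ranged in its 4 probes from −0.21 to 0.08 in the median. At 0 h, the start of these pairs, the 10 probes differed from sham by a median of 0.33 after iTBS and 0.10 after 1 Hz. After iTBS 4 of 10 at 0 h and 3 of 10 at 2 h had an unadjusted p under 0.05 (limma). Of all 35688 probes 1405 and 758 did, and after 1 Hz 0 of 10 did at both times. No heat shock probe passed after adjustment. These values stand beside those of the splicing genes, and no temperature was recorded with either.

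The levels of the 9 genes were unevenly related to each other over the 55 arrays after removal of series means. Across the 36 pairs of genes, each by its brightest probe, the correlation ran from −0.44 (Clk1 and Srsf2) to 0.64 (Srsf6 and Srsf7), with a median of 0.19. Srsf6 with Sf3a1 and Srsf1 with Srsf3 each gave 0.62. Among 13883 other named genes the closest to Clk1 were Ces5a (0.82), Adamts15 (0.80) and Ddit3 (0.78), a transcription factor of the stress response. Clk1 was lowest on the iTBS array of series D at 0 h, at 5.16. Its next lowest level was 5.21, on the 1 Hz array of series A at 8 h. These arrays had the most outlier spots of the 55, and Clk1 read 5.95 or higher on all others. The correlations of Clk1 were not repeated without these arrays, so how far they rest on them was not tested. The genes closest to Clk4 were Zbtb11 (0.74), Atp8b2 (0.71) and Tob2 (0.70). Srsf5 (A_64_P015902) was closest to Tra2b (0.84) and Rbm39 (0.84), both splicing factors of the SR-like class, and Hecw1 (0.83). These are descriptions over arrays that share series and times.

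Stimulation itself was compared at matched times, which the choice of genes had not used. No probe of the 9 genes passed at an adjusted p under 0.05 in any of the 10 comparisons of 1 Hz or iTBS with sham (limma with Benjamini-Hochberg adjustment over 35688 probes). Of all probes, 2 passed at 2 h and 1 at 8 h after 1 Hz (0.0056% and 0.0028%), 2 at 8 h after iTBS (0.0056%) and 0 in the other 7. At an unadjusted p under 0.05 there was 1 of 140 member results, Sf3a1 at 2 h after iTBS, where 1.63% of all probe results passed that limit. With series at each time as a block it was 9 of 140, against 6.83% of all, and none passed after adjustment. Arrays of 1 series deviated together from their groups, with a mean correlation of 0.398, against −0.134 for arrays of separate series. Sf3a1 then read 2.76, 2.78, 3.07 and 3.47 (B, C, A and D) against 3.06, 3.01, 3.99 and 3.72 in sham, lower within every series although the groups overlapped. The difference was −0.42 ± 0.19 (limma, unadjusted p 0.0335, adjusted p 1.00). Without the sham array of series A, which read 3.99, it was −0.24, and after normexp with quantile normalization −0.27. The largest estimate was that of Clk1 at 8 h after 1 Hz, −0.52 ± 0.28 (limma, unadjusted p 0.0706, adjusted p 1.00), where the series A array read 5.21 and the others 6.50, 6.95 and 6.66, against 6.81, 6.97 and 6.78 in sham. Without the series A array, the array with most outlier spots, the estimate was −0.15. In the fit without a block, standard errors of the 140 estimates lay between 0.16 and 0.32. Differences of the sizes estimated there were not detectable with so few arrays. With series at each time as a block, the smallest adjusted p of a member against sham was that of Clk4 at 0 h after iTBS. Its difference was 0.29 ± 0.10 (limma, unadjusted p 0.0078, adjusted p 0.160).

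Averaged over the 5 times, no member differed from sham by more than 0.11: the estimates ran from −0.09 (Srsf2 A_44_P1089951) to 0.04 (Clk4) after 1 Hz and from −0.11 (Sf3a1) to 0.08 (Srsf2 A_44_P1089951) after iTBS, with standard errors of 0.08 to 0.13. None of these 28 passed the test (0% of all probes), and 0 of 28 had an unadjusted p under 0.05 (0.68% of all), also with series at each time as a block (1.89% of all). A change over time in the difference from sham was found for no member (limma moderated F test, 0 of 14 for both protocols). At an unadjusted p under 0.05 there were 0 of 28 (1.17% of all), and 2 of 28 with series at each time as a block (9.97% of all). Between iTBS and 1 Hz no member passed at any time (0 of 70 at an unadjusted p under 0.05, 1.6% of all probe results). The estimate with the smallest p in this fit was Srsf2 A_44_P381360 at 48 h, 0.45 ± 0.23 (limma, unadjusted p 0.0545, adjusted p 1.00), and it was 0.21 without the 1 Hz array of series A, which read 2.28. With series at each time as a block 4 of 70 had an unadjusted p under 0.05, against 6.25% of all, and all 4 were at 48 h. The smallest p was then that of Srsf3 A_42_P599074, at −0.33 ± 0.10 (limma, unadjusted p 0.00255, adjusted p 0.139).

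Untreated dishes differed from sham at 0 h on 3 of 14 probes at an unadjusted p under 0.05, where 2.43% of all probes did, and on 0 after adjustment (0.0028% of all). With series at each time as a block the count was 5 of 14, against 7.15% of all. Clk4 read 5.01 ± 0.33 (SD, n = 4) untreated and 4.58 ± 0.13 (SD, n = 4) in sham, a difference of 0.43 ± 0.19 (limma, adjusted p 1.00). Srsf5 A_44_P515521 read 6.01 ± 0.26 against 6.50 ± 0.32 (SD, n = 4 each), a difference of −0.49 ± 0.21, and Srsf7 A_44_P1106432 6.25 ± 0.12 against 5.91 ± 0.16, a difference of 0.34 ± 0.16. Untreated arrays came from series A and C only, and sham from all 4. With series at each time as a block the adjusted p of Clk4 was 0.0673 (limma), and over all 67 alternatives it lay between 0.0673 and 1.00.

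**Figure D5:**
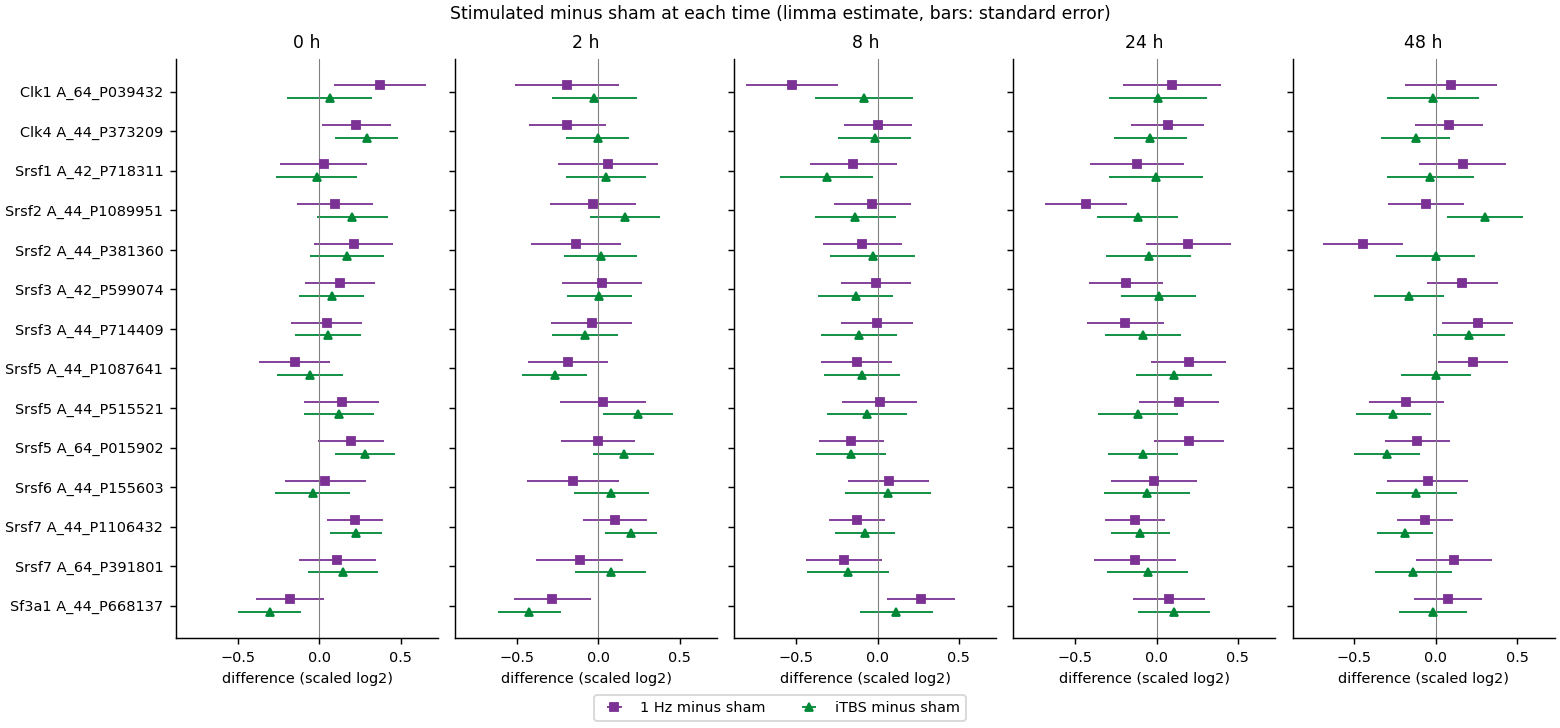
Stimulated minus sham in scaled log2 (horizontal axes) for the 14 probes (vertical axis), 1 panel per time, with squares for 1 Hz, triangles for iTBS and bars for the limma standard error. No estimate exceeds 0.52 in size, and none passed the test.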

How the data were processed

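RNA of rat hippocampal cultures was hybridised to one-colour arrays (Agilent SurePrint G3 Rat v2). The deposited scanner files hold background-corrected signal intensity per spot, extracted by the authors with Feature Extraction 12.0.3.1 (design build rn4), and median and background intensity. The deposited series matrix gives z-scores per probe, standardised within arrays by the authors (a score), and served as an alternative. From the deposited intensity, log2 values of repeat spots were averaged, standardised within each array and multiplied by the median standard deviation of the arrays (4.06). Of 45598 probes, 420 without a value on every good array and 9490 that exceeded background clearly on fewer than 3 arrays were left out, which left 35688. No signal was saturated, 66.1% to 81.8% of probes were well above background per array, and pairwise correlations were 0.940 to 0.993. The number of arrays limits precision.

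Groups came from the labels, and 16 group means were fitted in limma 3.58.1 (R 4.3.3) with no covariate and 39 residual degrees of freedom. The Benjamini-Hochberg adjustment ran over all probes within a comparison, at 0.05. Changes over time and between series were described without a test (Python 3.11.15), against the share of all probes whose pairs had 1 sign. The fit was tested on simulated data for iTBS against sham at 48 h. It recovered 20% of probes changed by 1 in log2 and 65% of those changed by 2, so most changes of the smaller size would be missed. The genes, the lists and the tests were chosen with earlier results of these data known. Every probe of the genes was described. Of each list the 2 genes with the largest median difference at 48 h were named, and other list genes and the similar genes were counted or ranked by rule. Same-numbered replicates were checked for pairing, and series at each time, slide, scaling and single arrays were tried as alternatives. Proteins, probe sequences and probe positions were not analysed here.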

Additional observations from a re-analysis of the deposited data

Results flagged for a closer look

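Of 112 sets of 4 arrays (14 probes in 8 groups), 4 held 1 array far from the other 3. Chance gives about 1 set in 20, so this count was not above what chance gives. Srsf1 read 4.55 at 48 h after 1 Hz in series D, against 5.37 to 5.54 in the others. Srsf7 A_64_P391801 read 6.09 at 8 h after 1 Hz in series D, against 6.72 to 6.81. The Srsf2 probe A_44_P381360 read 3.94 at 8 h after 1 Hz in series B, against 3.39 to 3.46. Srsf3 A_42_P599074 read 4.34 on 1 untreated array of series A, against 4.12 to 4.16.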

How the results depend on the processing

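No member probe passed in any test under 11 of the 12 alternatives that kept all groups, or when each of the 55 arrays was left out (lowest and highest count both 0). The exception was the fit with all 56 arrays, including the array with the bad grid. In that fit 11 member results passed for the protocols against sham and 11 for iTBS against 1 Hz, all at 2 h. No share of all probes was set beside these counts, so they cannot tell the member probes from other probes. Criteria written from the study's methods as read here called 0 member results, and 0 to 13 of 35688 probes in a comparison. Their exact settings were not given in the sources used here, so these counts do not stand for the study's own calls. Same-numbered replicates did not pair the arrays, as their deviations correlated by a mean of 0.160 with a lowest value of −0.46, and with a replicate block 0 member probes passed. The 7 differences given from the fit without a block (3 for stimulation and 4 for untreated dishes) kept their sign in all alternatives. Over the 4 times 8 member results had pairs of 1 sign, all lower: 2 of 14 probes at 8 h, 4 at 24 h and 2 at 48 h. Of all probes 2.19%, 3.07% and 2.17% were lower in all pairs at these times. The count lay between 8 and 10 when each array was left out. It could not fall below 8, as leaving out an array only removes pairs. After quantile normalization it was 13, with no share of all probes set beside it. There Srsf7 A_44_P1106432 was higher in all pairs at 8 h and 24 h. It was higher in all pairs at 8 h also after normexp with quantile normalization and from the deposited z-scores. The cause was not tested. The 8 named median differences kept their sign in all alternatives. For single arrays left out this was fixed in advance, since the 8 were named for having pairs of 1 sign. Normexp used the median signal, and this choice, the deposited z-scores and slide as a fixed block were chosen after seeing the data.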
